A study of Oryza sativa with 6 samples.

Results

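The WAT1-related genes were followed in roots of rice (Oryza sativa) given cadmium with or without Fo10. WAT1, short for WALLS ARE THIN1, is a membrane protein of Arabidopsis that exports auxin from the vacuole and is needed for thick secondary walls in stem fibres. Its relatives form a large plant family of the drug/metabolite transporter superfamily, to which the MtN21 nodulin of Medicago also belongs. Several Arabidopsis relatives are known as UMAMIT proteins and carry amino acids out of cells, and others have been linked to auxin or to defence. The members were taken as every rice gene model whose description in the deposited table begins with the words WAT1-related protein, which gave 48 of 40745 gene models. All 48 descriptions cite the UniProtKB/TrEMBL database, each with an entry of its own, and none of the 48 has a gene name. The role of a single member is therefore not stated below, and members are called by their identifiers. A further 35203 gene models carry no description, so relatives among them could not be recognised.

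Root RNA was sequenced from 6 libraries of wild-type rice grown in a greenhouse with 12 h of light at 30 °C and 12 h of dark at 28 °C. All 6 came from roots under 10 µM cadmium: 3 without Fo10 (Cd) and 3 with 0.5% Fo10 (Fo+Cd). What Fo10 is, how long the treatments lasted and whether replicates were separate plants are not stated in the labels. P-values therefore reflect how far these libraries differ within a group, which may be technical variation. An effect of cadmium itself was not tested, because the labels give it for both groups. The table's own column of means for the Cd libraries is headed CK, which neither the labels nor the header explain, so the cadmium treatment of this group rests on the labels and the names of its library columns.

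Values are the authors' TPM, transcript abundances corrected for gene length and scaled to one fixed total in every library, which can be set side by side between genes. The reads behind them are unknown. The 6 libraries held 24954 to 25793 features above 0, and their correlations across features on the log2(TPM + 1) scale were 0.957 to 0.977 for libraries of one group and 0.942 to 0.954 across groups. The silicon exporter gene Lsi2, a root marker, was at 642 to 837 TPM in Cd and 730 to 1120 TPM in Fo+Cd. Of 6 root markers listed, 1 other was matched, the phosphate transporter gene PHT1-4 at 2.65 to 2.69 and 4.19 to 5.8 TPM, and 4 matched no description or name. The 21 green-tissue marker genes together were at 22.0 to 24.0 and 22.2 to 29.95 TPM, with 5 of them at 0 in all libraries.

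The family was expressed very unevenly in these roots. Averaged over all 6 libraries, 4 members were at 100 TPM or more, 8 between 10 and 100, 14 between 1 and 10, and 7 above 0 but under 1 TPM. The other 15 members (31.2%) were listed at 0 in every library, a share close to the 32.0% of all features in the table. The 3 most abundant members, BGIOSGA011443, BGIOSGA000635 and BGIOSGA005539, held 55.5% ± 2.59 of the family's summed TPM without Fo10 and 57.4% ± 2.70 with it (SD, n = 3 each).

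The order at the top was the same in every library. BGIOSGA011443 ranked first in all 6, followed by BGIOSGA000635, BGIOSGA005539, BGIOSGA024199 and BGIOSGA020559. The spreads of BGIOSGA011443 and BGIOSGA000635 touched within a group: in Cd they were at 217 ± 34.7 and 180 ± 26.9 TPM, and in Fo+Cd at 264 ± 23.1 and 240 ± 26.7 TPM. Below the fifth place the order shifted. BGIOSGA032167 was at rank 11, 8 and 11 of the 48 in Cd replicates 1, 2 and 3, and at rank 6 in each Fo+Cd library. BGIOSGA022528 was at ranks 25, 25 and 26 in Cd and at 16, 13 and 17 in Fo+Cd.

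**Figure D1:**
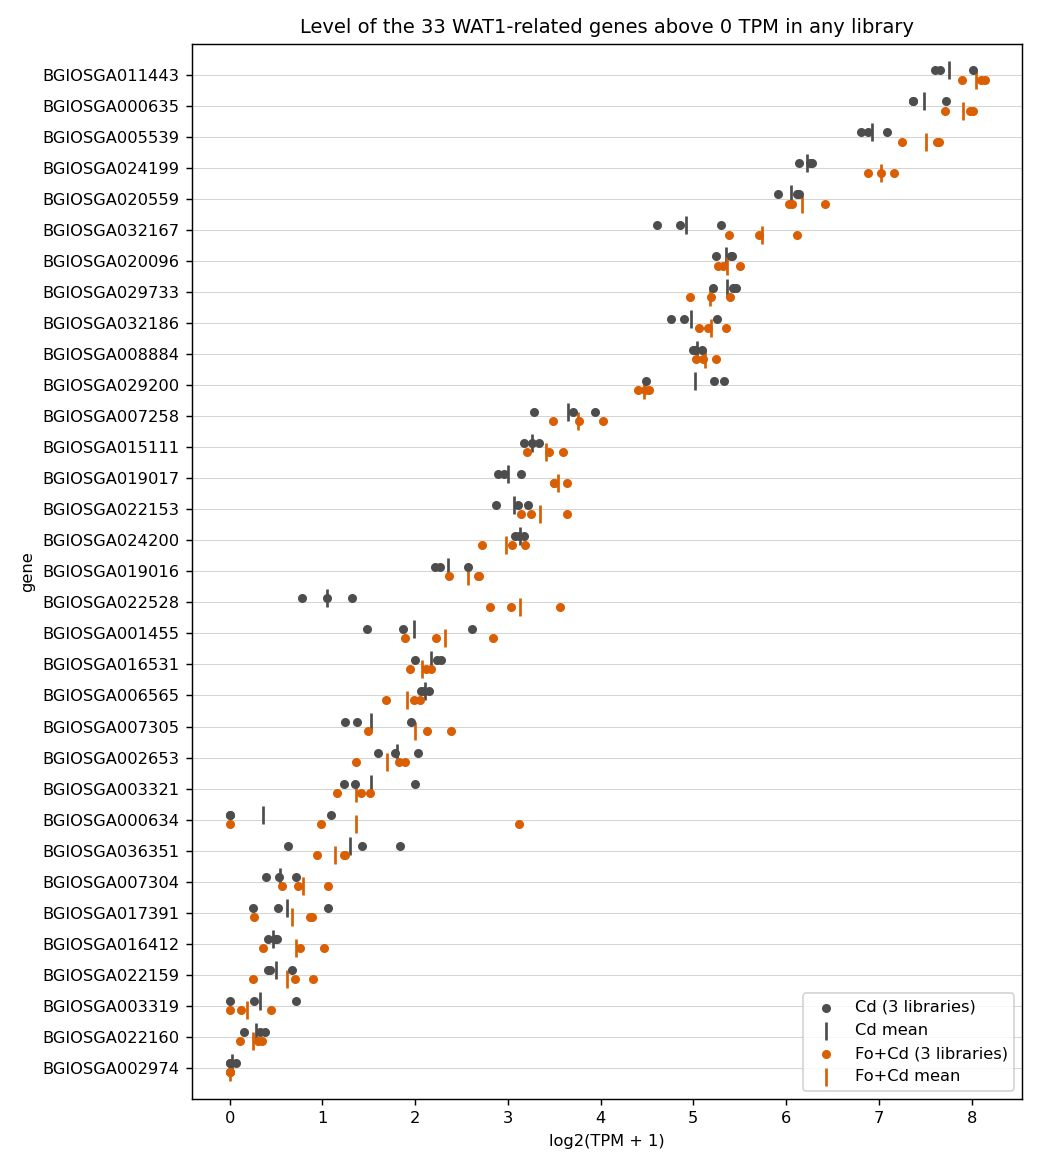
Level of each of the 33 WAT1-related genes above 0 TPM in any library, as log2(TPM + 1), ordered by the mean over 6 libraries. Points are libraries (3 Cd in grey, 3 Fo+Cd in orange) and vertical ticks are group means. The 5 top genes keep their order in every library, and BGIOSGA022528 shows the widest gap between the groups.

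Together the members took a larger part of the transcript pool with Fo10. Their summed level was 898, 1032 and 863 TPM in Cd replicates 1, 2 and 3, and 1074, 1297 and 1212 TPM in Fo+Cd replicates 1, 2 and 3. The lowest Fo+Cd library was thus above the highest Cd library, by a small margin. The means were 931 ± 89.1 and 1194 ± 112 TPM (SD, n = 3 each), or 0.0965% and 0.124% of the listed TPM, a ratio of 1.28. No test was made of this sum. In whole roots, more cells of a type and more RNA per cell cannot be told apart.

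Most of that difference lay in few genes. BGIOSGA005539, BGIOSGA000635, BGIOSGA024199 and BGIOSGA011443, the 4 members at 100 TPM or more, made up 85.1% of it, and BGIOSGA032167 brought the share to 94.1%. These are shares of the net difference, in which members with a lower mean in Fo+Cd count as negative, BGIOSGA029200 most at -4.27%. A difference in TPM weighs abundant genes most. The 5 most abundant members, these 4 and BGIOSGA020559, already held 69.3% to 72.5% of the summed TPM in the Cd libraries. Counted without regard to size, 22 members had a higher mean in Fo+Cd and 11 a lower one. These counts include 8 members too low to be tested, and the share of all features was not computed for them.

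**Figure D2:**
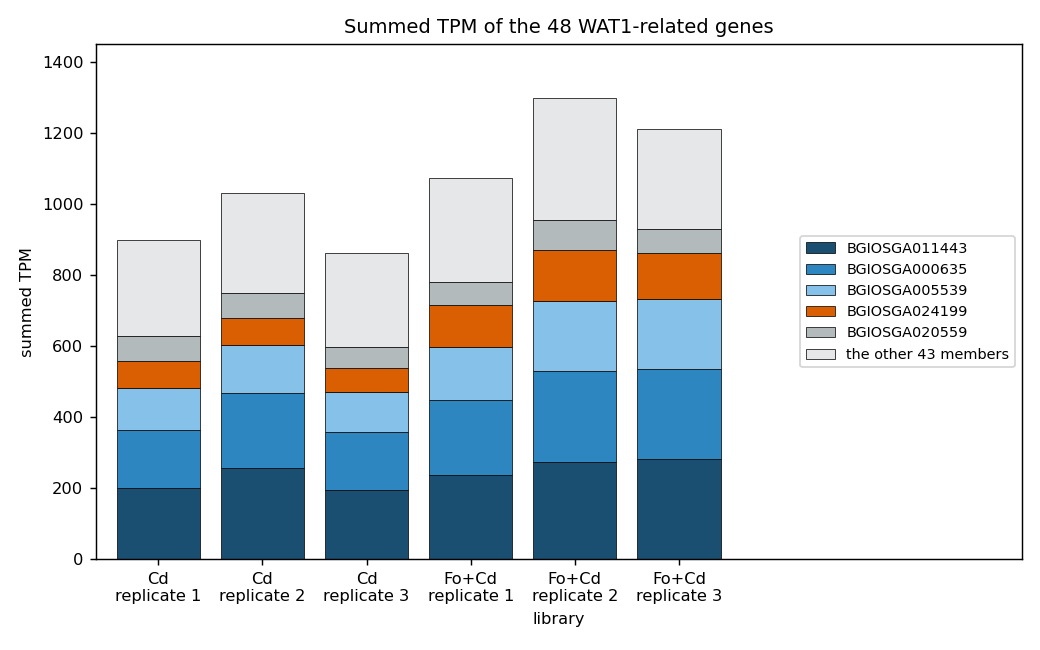
Summed TPM of the 48 WAT1-related genes in each library, divided into the 5 most abundant genes and the other 43. Every Fo+Cd bar, from 1074 to 1297 TPM, is taller than every Cd bar, from 863 to 1032 TPM.

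The comparison of Fo+Cd with Cd asked which members differ in level when Fo10 is given with cadmium. It was fitted with limma on log2(TPM + 1) over all 21166 features that reached 1 TPM in 3 or more libraries, and calls were made where the Benjamini-Hochberg adjusted p over all of them was under 0.05. Of the 48 members, 25 passed the filter, each reaching 1 TPM in 4 or more libraries and 23 of them in all 6. Of these 25, 2 rose with Fo10 and none fell in limma. The background was 1.72% of all tested features called higher and 0.723% called lower, 2.45% in either direction. Among the 4288 tested genes whose description cites a database, as those of the members do, 1.28% were called higher. Unadjusted, 6 members were higher and 1 lower at p under 0.05, against 7.35% and 8.06% of all tested features. The groups did not overlap in 5 members with Fo+Cd higher and in 1 with Fo+Cd lower, against 11.3% and 10% of all tested features. The median log2 fold change of the 25 was 0.16, against 0.00254 over all tested features, and 17 of the 25 were above 0, against 50.4% of all tested features.

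The member with the largest change was BGIOSGA022528. It was at 0.72, 1.49 and 1.07 TPM in Cd replicates 1, 2 and 3, and at 7.17, 10.83 and 6.02 TPM in Fo+Cd replicates 1, 2 and 3. The groups were well apart: this gene was near the filter of 1 TPM without Fo10 and well above it in all 3 libraries with Fo10. It rose from 1.09 ± 0.386 to 8.01 ± 2.51 TPM (SD, n = 3), 7.32-fold between the means. Its log2 fold change of 2.09 (SE 0.239, limma adjusted p = 0.00672) was computed after adding 1 TPM, which lowers the fold of a gene at this level. The call held with any one library left out (adjusted p 0.0123 to 0.0358).

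The other riser, BGIOSGA024199, is an abundant gene. Its level was 76.86, 75.4 and 69.33 TPM in Cd replicates 1, 2 and 3, and 116.78, 142.67 and 129.21 TPM in Fo+Cd replicates 1, 2 and 3. The Cd libraries lay close together and all 3 Fo+Cd libraries stood above them. The gene rose 1.75-fold, from a mean of 73.9 ± 3.99 TPM to one of 130 ± 12.9 TPM (SD, n = 3). In limma its log2 fold change was 0.80 (95% interval 0.56 to 1.03) with an adjusted p of 0.00966. The call was lost without Cd replicate 3 or Fo+Cd replicate 3 (adjusted p 0.0507 and 0.0578), with log2 fold changes of 0.75 and 0.80.

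**Figure D3:**
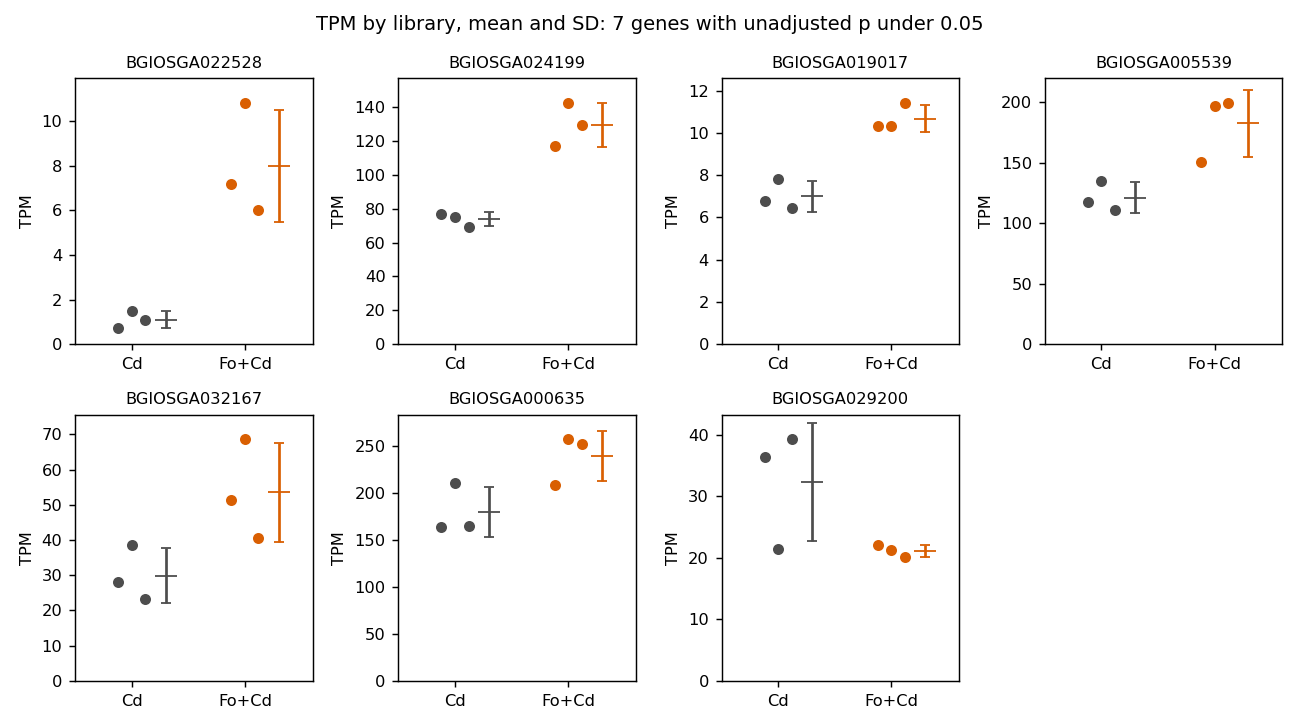
TPM in each library for the 7 WAT1-related genes with an unadjusted p under 0.05, ordered by p, with replicates 1 to 3 from left to right. Crossbars with whiskers give the mean and SD of 3 libraries. In BGIOSGA022528, BGIOSGA024199, BGIOSGA019017, BGIOSGA005539 and BGIOSGA032167 all Fo+Cd points lie above all Cd points, and in BGIOSGA029200 the Cd replicate 2 point lies among the Fo+Cd points.

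A further 3 members had groups that did not overlap, with Fo+Cd higher, but did not pass the test. BGIOSGA019017 was at 6.76, 7.81 and 6.43 TPM in Cd and at 10.31, 10.31 and 11.44 TPM in Fo+Cd. Its log2 fold change was 0.55 (95% interval 0.27 to 0.83, adjusted p = 0.0696). The abundant BGIOSGA005539 was at 117.11, 135.14 and 110.94 TPM in Cd and at 150.77, 196.85 and 199.48 TPM in Fo+Cd. Its log2 fold change was 0.58 (95% interval 0.26 to 0.90, adjusted p = 0.0926). Its nearest libraries, Cd replicate 2 and Fo+Cd replicate 1, were much closer to each other than the group means. BGIOSGA005539 was called in 1 of 6 limma fits with a library left out, the one without Fo+Cd replicate 1. Over these fits its adjusted p was 0.0462 to 0.308. BGIOSGA032167 was at 27.96, 38.47 and 23.35 TPM in Cd and at 51.27, 68.61 and 40.71 TPM in Fo+Cd, where its highest Cd library came close to its lowest Fo+Cd library (log2 fold change 0.82, 95% interval 0.25 to 1.38, adjusted p = 0.168). Both groups of BGIOSGA032167 spread widely, which gave it an SE of 0.238, against a median of 0.151 over the tested members. In both groups its replicate 2 was highest and its replicate 3 lowest. With the replicate number as a block, limma gave it an SE of 0.0799 and an adjusted p of 0.0194. No label says that the numbers pair the samples.

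The 2 most abundant members overlapped between the groups through the same libraries. BGIOSGA000635 was at 164.01, 210.91 and 164.6 TPM in Cd and at 209.14, 257.4 and 252.89 TPM in Fo+Cd. Its value in Cd replicate 2 was just above that in Fo+Cd replicate 1, while the other libraries kept the groups apart (log2 fold change 0.42, 95% interval 0.10 to 0.74, adjusted p = 0.207). BGIOSGA011443 was at 201.06, 257.3 and 193.85 TPM in Cd and at 237.93, 273.57 and 281.32 TPM in Fo+Cd. Its log2 fold change was 0.29 (95% interval -0.03 to 0.60, adjusted p = 0.365). Here too Cd replicate 2 lay above Fo+Cd replicate 1. Within Cd, replicate 2 was the highest library for 16 of the 25 tested members, against 41.6% of all tested features. Within Fo+Cd, replicate 2 was the highest for 13 of the 25, against 34.7% of all tested features. Replicate 1 of Fo+Cd was the lowest for 12 of the 25, and the share of all tested features was not computed for this count. The part of these libraries in the results was not tested further than by leaving each out. Without Cd replicate 2, BGIOSGA000635 had a log2 fold change of 0.54 (limma adjusted p = 0.0838). This was the lowest adjusted p of the 6 fits with a library left out, which reached 0.521, and none called the gene.

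Of the 8 members between 10 and 100 TPM, 6 had a log2 fold change above 0 and none was called in limma, while 2, BGIOSGA032167 and BGIOSGA029200, had an unadjusted p under 0.05. For several of them the interval was narrow. BGIOSGA020096 was at 40.0 ± 2.63 TPM in Cd and 40.2 ± 3.73 TPM in Fo+Cd, with a 95% interval of the log2 fold change from -0.23 to 0.24. BGIOSGA008884 was at 31.8 ± 1.18 and 34.0 ± 2.63 TPM, with an interval from -0.12 to 0.30. BGIOSGA020559 was at 65.6 ± 5.66 and 71.7 ± 11.2 TPM, with an interval from -0.18 to 0.42. No bound of these 3 intervals was further than 0.42 from 0. BGIOSGA032186 was at 30.7 ± 5.79 and 35.6 ± 3.82 TPM, BGIOSGA029733 at 40.3 ± 3.69 and 35.6 ± 5.53 TPM, and BGIOSGA007258 at 11.7 ± 2.80 and 12.7 ± 2.56 TPM (adjusted p 0.524 to 0.832). Over the 23 tested members that were not called, 19 had a 95% interval that stayed within 1 of 0 on the log2 scale.

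Among members with a lower mean in Fo+Cd, BGIOSGA029200 had the most negative log2 fold change. It was at 36.42, 21.38 and 39.26 TPM in Cd replicates 1, 2 and 3, and at 22.02, 21.21 and 20.14 TPM in Fo+Cd replicates 1, 2 and 3. Cd replicates 1 and 3 stood above all Fo+Cd libraries, but Cd replicate 2 lay among them (log2 fold change -0.55, 95% interval -1.06 to -0.03, adjusted p = 0.297). Without Cd replicate 2 the gene was called lower (limma log2 fold change -0.81, adjusted p = 0.0134), the 1 call in 6 fits with a library left out. In the other fits its log2 fold change was -0.58 to -0.39 and its adjusted p 0.378 to 0.631. The 1 member whose Fo+Cd libraries all lay below its Cd libraries, BGIOSGA006565, was at 3.28, 3.19 and 3.42 TPM in Cd and at 2.97, 3.15 and 2.21 TPM in Fo+Cd, a log2 fold change of -0.19 (adjusted p = 0.601). The other tested members with negative values had adjusted p of 0.562 to 0.853.

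**Figure D4:**
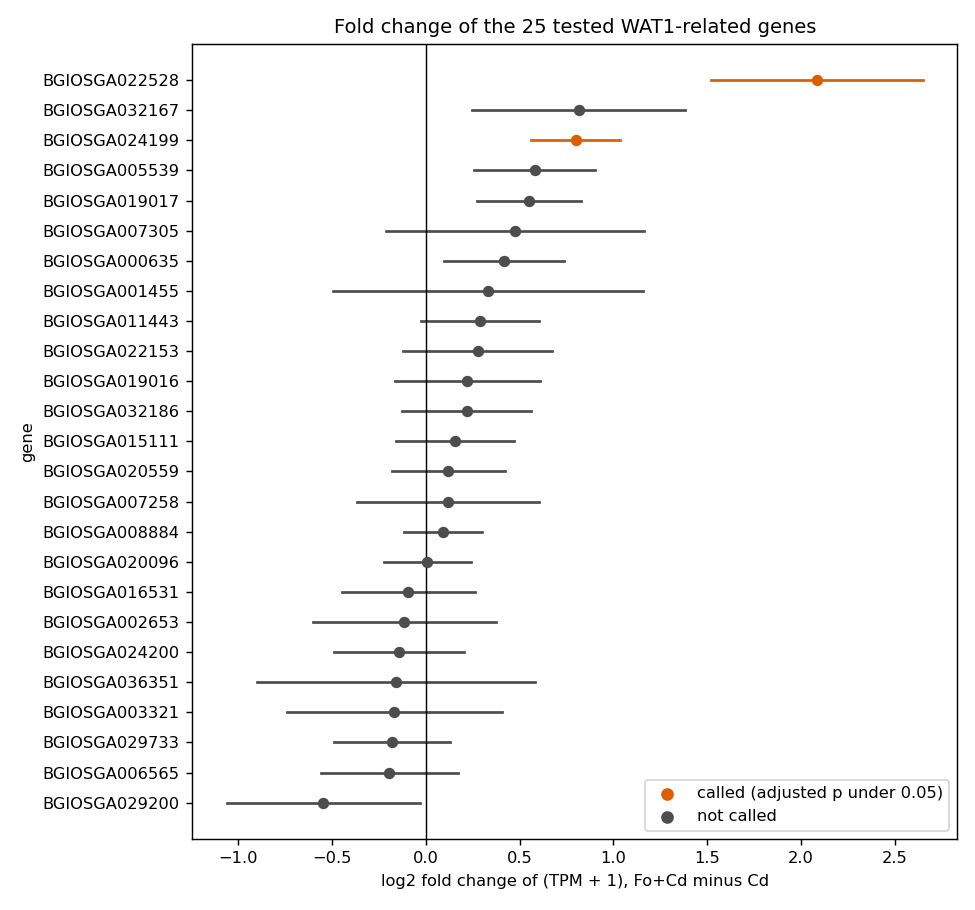
Log2 fold change of TPM + 1 (Fo+Cd minus Cd) of the 25 tested WAT1-related genes, with the 95% interval from limma, unadjusted for multiple tests. The 2 called genes (orange) are BGIOSGA022528 at 2.09 and BGIOSGA024199 at 0.80. Their intervals are clear of 0, as are those of the uncalled BGIOSGA000635, BGIOSGA005539, BGIOSGA019017, BGIOSGA032167 and BGIOSGA029200. Of the 25 points, 17 lie to the right of 0.

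Arranged by mean level over all 6 libraries, the most abundant members had the highest median. The 4 members at 100 TPM or more were all above 0. Their median log2 fold change was 0.50, against -0.00873 for the 1787 tested features at that level. BGIOSGA024199 was at 73.9 TPM in Cd and is among these 4 through its Fo+Cd libraries, so its class and its change are not independent. The others, BGIOSGA011443, BGIOSGA000635 and BGIOSGA005539, were at 100 TPM or more in Cd too. Their log2 fold changes were 0.29, 0.42 and 0.58, and none of them was called. The 8 members between 10 and 100 TPM had a median of 0.10, against 0.00762 for 10767 features. The 13 tested members under 10 TPM had a median of 0.16, against -0.00274 for 8612 features, and 7 of the 13 were above 0. BGIOSGA022153 (7.43 ± 1.01 and 9.28 ± 1.92 TPM) and BGIOSGA007305 (1.95 ± 0.821 and 3.14 ± 1.23 TPM) were among those above 0, and neither was called (adjusted p 0.484 and 0.487).

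The filter left out 23 members, of which 8 had a value above 0 in at least 1 library. Just inside it were BGIOSGA036351, BGIOSGA003321 and BGIOSGA002653, where the value that had to reach 1 TPM, the third highest of the 6 libraries, was 1.36, 1.66 and 2.55 TPM. The members just outside were BGIOSGA000634, BGIOSGA017391 and BGIOSGA007304, where it was 0.98, 0.82 and 0.64 TPM. BGIOSGA000634 stood out among the weakly expressed members: it was at 0, 0 and 1.13 TPM in Cd and at 0, 7.66 and 0.98 TPM in Fo+Cd. Its higher mean with Fo10 thus came from Fo+Cd replicate 2.

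Members with consecutive identifiers were alike in level in some runs and unlike in others. There were 8 such runs, 7 pairs and 1 run of 4, with 18 members between them. The table gives no positions, so whether these are neighbours in the genome was not examined. BGIOSGA000635 averaged 180 TPM in Cd while BGIOSGA000634 averaged 0.377 TPM. BGIOSGA024199, called higher, has the partner BGIOSGA024200, which was at 7.73 ± 0.296 TPM in Cd and 6.97 ± 1.27 TPM in Fo+Cd. Its log2 fold change was -0.14 (95% interval -0.49 to 0.20). BGIOSGA019016 and BGIOSGA019017 were closer to each other, at 4.14 and 7.0 TPM in Cd and at 4.99 and 10.7 TPM in Fo+Cd. In the run of 4, BGIOSGA002973 to BGIOSGA002976, the one value above 0 was 0.05 TPM for BGIOSGA002974 in Cd replicate 1. Reads from near-identical relatives could have been divided between members, so values of single genes in such runs are uncertain.

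Genes that act with the substrates linked to this family were read from the same limma fit. Of 7 tested auxin efflux carriers, which move auxin across membranes, none was called (1 with an unadjusted p under 0.05, median log2 fold change 0.06). At 37.9 ± 2.96 TPM in Cd and 75.1 ± 18.7 TPM in Fo+Cd, the carrier gene BGIOSGA000639 came closest (log2 fold change 0.94, SE 0.186, adjusted p = 0.056). Another, BGIOSGA034541, was at 1.27 ± 0.161 and 0.580 ± 0.423 TPM (adjusted p = 0.336).

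No gene was called by limma among 3 Aux/IAA repressors of auxin response, 20 auxin response factors, which are the transcription factors they bind, 3 GH3 enzymes that join auxin to amino acids, or 1 SAUR gene. Unadjusted, 1 repressor, 2 response factors and 1 GH3 gene had p under 0.05, and the SAUR gene did not. The repressor gene IAA13 was at 410 ± 88.5 and 280 ± 20.8 TPM (adjusted p = 0.204), with Cd replicate 2, at 307.73 TPM, close to the Fo+Cd libraries, and IAA5 was at 54.4 ± 15.7 and 39.6 ± 6.69 TPM (adjusted p = 0.45). Among the response factors, BGIOSGA023559 was at 35.6 ± 0.710 and 31.0 ± 0.609 TPM (adjusted p = 0.266) and BGIOSGA026655 at 25.8 ± 1.32 and 29.9 ± 1.82 TPM (adjusted p = 0.324). GH3.8 was at 21.2 ± 4.09 and 29.9 ± 3.12 TPM (adjusted p = 0.17), and the gene described as GH3.9 (BGIOSGA023736) at 7.36 ± 0.184 and 6.46 ± 0.566 TPM (adjusted p = 0.543). The SAUR gene BGIOSGA029334 was at 1.39 ± 1.87 and 2.75 ± 1.43 TPM (adjusted p = 0.533).

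Of 7 tested amino acid carriers of other families, 3 rose: BAT3 (BGIOSGA000128) from 11.2 ± 1.66 to 22.3 ± 1.81 TPM, GAT2 (BGIOSGA001188) from 2.62 ± 0.981 to 8.47 ± 0.723 TPM, and AAP10C (BGIOSGA000395) from 10.3 ± 2.41 to 22.7 ± 4.10 TPM (limma adjusted p 0.0127, 0.016 and 0.0337). These 3 are described without citing a database, and 206 of the 226 tested genes so described in the table were called, so the description and the call are not independent. Each call was lost with a single library left out: BAT3 in all such fits except those omitting Cd replicate 2 or Fo+Cd replicate 1 (adjusted p 0.0506 to 0.0573), GAT2 without any one but Cd replicate 2 (0.0518 to 0.0831), and AAP10C without any one but Cd replicate 1 (0.0602 to 0.125). Over these fits the log2 fold changes were 0.88 to 1.05 for BAT3, 1.29 to 1.63 for GAT2 and 0.95 to 1.25 for AAP10C, against 0.94, 1.42 and 1.08 with all libraries. The 4 other carriers, all with a database description, were not called.

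No transporter of related superfamily branches was called by limma, and 1 had an unadjusted p under 0.05. The 1 purine permease gene, BGIOSGA029284, was at 3.89 ± 0.789 TPM in Cd and 2.20 ± 0.675 TPM in Fo+Cd (adjusted p = 0.22). The 6 sugar-phosphate and nucleotide-sugar transporters had a median log2 fold change of 0.13, and those with the smallest p were CSTLP3 at 14.1 ± 1.12 and 16.5 ± 0.346 TPM and BGIOSGA021759 at 7.91 ± 1.63 and 10.5 ± 1.96 TPM (adjusted p 0.359 and 0.388).

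For secondary walls, the trait for which Arabidopsis WAT1 is named, the cellulose synthase genes CESA4 and CESA9 were not called, though CESA4 had an unadjusted p under 0.05. CESA7 was also sought and matched no description. CESA4 was at 37.7 ± 5.80 and 27.6 ± 4.42 TPM and CESA9 at 32.8 ± 8.91 and 23.6 ± 5.18 TPM (limma adjusted p 0.236 and 0.431). Of 8 tested laccases, enzymes that couple lignin precursors, LAC19 (BGIOSGA021910) and BGIOSGA019394 rose and BGIOSGA019397 fell, with log2 fold changes of 2.16, 0.65 and -0.69. The median log2 fold change of the 8 laccases was -0.22, and 4 of them had an unadjusted p under 0.05 in limma. LAC19 stayed called with any one library left out, whereas BGIOSGA019394 was not called without any one of the 6 (adjusted p 0.0592 to 0.174), nor BGIOSGA019397 without any one except Cd replicate 2 (0.0568 to 0.0806). Their log2 fold changes over these fits were 0.55 to 0.71 and -0.77 to -0.61.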

How the data were processed

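Root RNA of 6 libraries was measured, 3 per group. The labels' protocols name TRIzol for extraction and a stranded mRNA kit of Illumina, used on 1 µg of RNA. The authors deposited TPM values for 42031 features, recognised from the values, which sum to 963281 to 966767 per library. The aligner, counting program, annotation and genome build are not stated in the labels or the file header, and TPM keeps no record of depth, so precision rests on the spread between libraries. The 2 columns of group means, headed CK for Cd and Fo10 for Fo+Cd, equal the means of the 3 libraries within 1e-06 TPM and were not used otherwise. Libraries were assigned by matching column names to sample titles. Identical values above 0 made up at most 1.23% in any pair of libraries.

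Values were transformed to log2(TPM + 1), features that reached 1 TPM in 3 or more libraries were kept, and Fo+Cd was tested against Cd with limma 3.58.1 in R 4.3.3 (trend and robust settings, two-sided, no covariate). The code was tested on simulated data. Tables were handled with Python 3.11.15 and pandas 2.3.3.

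The members and lists were chosen with earlier results of these data known. Members named were those called, the 12 most abundant, the 12 with the smallest p, the 5 with the highest and the 5 with the lowest log2 fold change, and 3 on each side of the filter; others are given only beside a member with a consecutive identifier. Related lists were found by words in descriptions, and 2 of them, auxin influx carriers and MtN21/EamA nodulins, matched no gene. In each list the called genes were named, or, where none was called, the 2 with the smallest p. Alternatives covered the pseudocount (0.1), the filter, scaling, limma's settings, the replicate number as a block, and each library left out.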

Additional observations from a re-analysis of the deposited data

How the results depend on the processing

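BGIOSGA022528 and BGIOSGA024199 were called higher, and no member lower, with a pseudocount of 0.1 TPM, without the filter on low values, after quantile normalisation, with libraries scaled to the same sum, and with limma's trend and robust settings off. With each library left out in turn, members called higher numbered 1 to 3, members called lower 0 to 1, and all features called 189 to 726, while the median log2 fold change of the members was 0.11 to 0.18. The summed TPM difference of the members stayed within the spread between libraries of its value of 263 TPM under every alternative run, and was 216 TPM without BGIOSGA011443. Leaving out one library changed the sign of 6 named members that were not called: their log2 fold changes ranged from -0.31 to 0.065 (BGIOSGA003321), -0.062 to 0.26 (BGIOSGA007258), -0.49 to 0.11 (BGIOSGA036351), -0.066 to 0.056 (BGIOSGA020096), -0.22 to 0.052 (BGIOSGA002653) and -0.0043 to 0.19 (BGIOSGA020559). The cause was not tested.

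With the replicate number as a block, 3 members were called higher, the third being BGIOSGA032167 (adjusted p = 0.0194), and none lower; 353 features were called in all, and the median log2 fold change was 0.16. Of the related genes, GAT2, AAP10C, BGIOSGA019397 and BGIOSGA019394 then missed the threshold (adjusted p 0.0516 to 0.119). Without the filter, or with limma's trend and robust settings off, AAP10C and BGIOSGA019394 missed it too (0.0525 to 0.0802), and BGIOSGA019394 also with a pseudocount of 0.1 TPM or quantile normalisation (0.0515 and 0.052). The numbers were not taken to pair the samples, since no label says that they do and the correlations were weak. Deviations of same-numbered libraries from their group means correlated at -0.0325, 0.0847 and 0.0734 across features. Cd replicates 2 and 3 correlated best with their own number, and Cd replicate 1 did not. Whether single genes share a batch by replicate number was not tested. With the depth unknown, members listed at 0 cannot be told from members below detection.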
